A study of Homo sapiens with 6 samples.

Results

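The 41 genes described here encode proteins of macroautophagy and of the lysosome, and they were chosen by name from a table of 61806 genes measured in MDA-MB-231 cells, an established line of triple-negative human breast cancer. All 41 had a row in the table under the chosen symbol. They were read as 26 genes of the autophagy machinery, 3 transcription factors of the MiT/TFE family and 12 genes of lysosomal enzymes and membrane proteins. RNA-seq was performed on 3 Control samples and 3 ParishinB samples, the latter collected after treatment of the same cell line with 20 μM Parishin B (PB), a phenolic compound from Gastrodia elata, for 24 h. PB was tested in the study as an inhibitor of the pseudokinase TRIB3. The labels give 1 cell line, no further treatment shared by the groups and no separate cultures. The p-values therefore measure the spread between these samples, taken largely over many genes rather than from each gene alone. This spread may be technical.

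Macroautophagy encloses cytoplasm in a double membrane, the autophagosome, which then fuses with the lysosome. A kinase complex around ULK1 starts the process, a lipid kinase complex around Beclin 1 makes phosphatidylinositol 3-phosphate (PI3P) on the growing membrane, and ubiquitin-like conjugation enzymes attach LC3 and GABARAP proteins to it. Cargo receptors such as p62, the product of SQSTM1, bridge ubiquitinated cargo to LC3. Lysosomes hold acid hydrolases and are kept acidic by the vacuolar proton pump (V-ATPase). TFEB, TFE3 and MITF are basic helix-loop-helix leucine zipper factors known to bind CACGTG-type elements at the promoters of lysosomal and autophagy genes.

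The promoters are shown first, with the copies of that element that they hold. RefSeq windows of build GRCh38.p14, running from 250 bases before to 50 bases after each start site, were found for 35 of the 41 genes, and 8 of these genes have several windows. No window was matched for MAP1LC3A, RB1CC1, LAMP2, ATP6V1H, CTSB and HEXA. CACGTG, which reads the same on both strands, occurred in 7.26% of all 35116 windows, or at 8.77% of the 27305 genes with a window. It was present at 6 of the 8 lysosomal genes with a window and at 2 of the 24 machinery genes, ATG14 and ATG3. It was present at none of the 3 transcription factor genes. In the wider lists read below it was present, among genes with a window, at 8 of 40 other lysosomal genes and 3 of 15 other V-ATPase genes. There it was also present at 3 of 32 other autophagy genes and 5 of 10 genes that anchor the kinase complex mTORC1 to the lysosome. The following stretches end at the base before the start site and are written 5′ to 3′ on the gene's strand, with CACGTG in capitals. The first 4 are lysosomal genes with the element, and the last 2 are machinery genes, both higher with PB, that have none in their windows.
LAMP1 (chr13:113297039-113297238, plus strand): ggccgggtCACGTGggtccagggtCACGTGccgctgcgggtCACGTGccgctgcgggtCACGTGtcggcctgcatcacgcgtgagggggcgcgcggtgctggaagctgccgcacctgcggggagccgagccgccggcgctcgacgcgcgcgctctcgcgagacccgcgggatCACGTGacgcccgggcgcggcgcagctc
MCOLN1 (chr19:7522564-7522623, plus strand): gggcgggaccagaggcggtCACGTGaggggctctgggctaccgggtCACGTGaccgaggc
CTSA (chr20:45891275-45891334, plus strand): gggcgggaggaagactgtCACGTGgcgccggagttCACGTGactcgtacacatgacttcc
NEU1 (chr6:31862822-31862961, minus strand): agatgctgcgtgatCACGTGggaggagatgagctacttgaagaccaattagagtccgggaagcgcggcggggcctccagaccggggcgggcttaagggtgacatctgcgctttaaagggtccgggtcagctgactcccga
SQSTM1 (chr5:179806949-179807008, plus strand): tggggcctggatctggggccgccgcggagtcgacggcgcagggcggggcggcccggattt
MAP1LC3B (chr16:87392276-87392335, plus strand): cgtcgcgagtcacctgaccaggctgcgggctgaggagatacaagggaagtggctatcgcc

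Expression was read in 2 ways. FPKM (fragments per kilobase of exon, scaled to the library total), as deposited, gives a gene's level per length in each sample. The log2 fold change, PB minus control, comes from an edgeR quasi-likelihood fit of the deposited counts over the 24200 genes whose mean FPKM reached 0.1, scaled by TMM (trimmed mean of M values), and each is given with its standard error. The deposited FPKM carries no such scaling. Scaling by library size alone moved the median log2 fold change of all genes from 0.01 to 0.14, so ratios of FPKM run higher than the fitted folds by about that shift. A gene was called where p, adjusted by Benjamini-Hochberg over all genes tested, did not exceed 0.05, and strongly changed where the log2 fold change was also at least 1 in size. Adjusted p-values printed for single genes come from a refit of the same test with a finite prior, which left every call on the 41 genes as it was and gave larger values for the called ones. Overlap between groups is read on the deposited FPKM, without TMM. Genes that were not called, such as LAMP1, MCOLN1 and CTSD, did not overlap either. The share of all genes without overlap was not counted, so a lack of overlap does not set a gene apart from the background.

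With PB, 25 of the 41 genes rose, 6 fell and 10 did not pass the test, and their median log2 fold change was 0.17. Of all 24200 genes tested, 24.1% were called higher and 26.1% lower, so the share that rose was above the background and the share that fell below it. As the 41 genes were chosen with earlier results of these data known, this comparison describes them and is not a test. The background includes many genes of low level, and among the 13533 genes whose mean FPKM reached 1, 4876 were called higher and 4888 lower. The autophagy machinery had 18 of 26 genes higher, 3 lower and a median of 0.26, which became 21, 2 and 0.39 with library size alone. The lysosomal genes had 6 of 12 higher, 2 lower and a median of 0.13, with 10 higher and a median of 0.27 under library size alone. Under that scaling the calls over all genes were 7679 higher and 4879 lower, against 5829 and 6322 with TMM. Strong changes were few, with SQSTM1 higher and MITF lower, against 5.36% of all genes strongly higher and 6.73% strongly lower. RNA came from whole cultures, in which fewer cells of a type and less RNA per cell cannot be told apart.

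**Figure D1:**
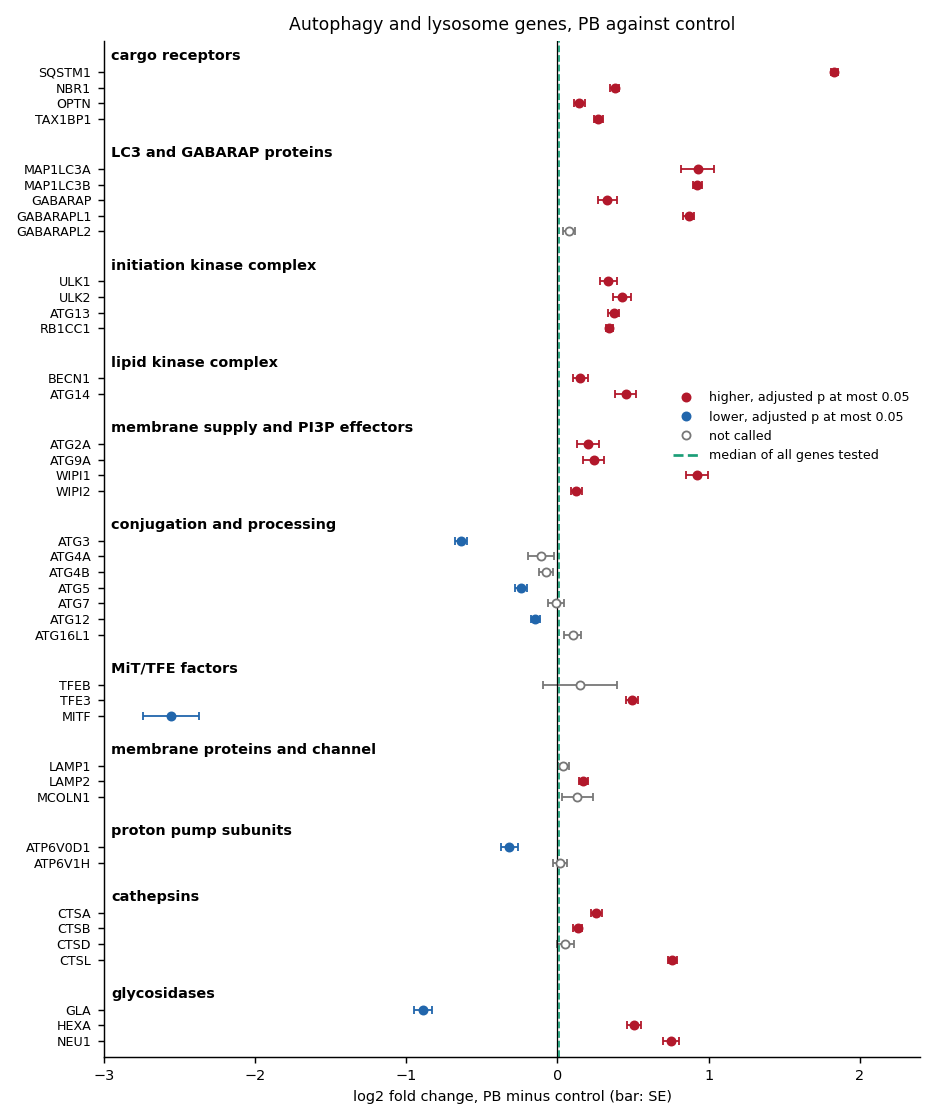
Log2 fold change of each gene, PB minus control, grouped by role, with points for the fitted values, bars for the standard error and a dashed line at the median of all genes tested (0.01). Filled red points are higher and filled blue points lower at an adjusted p of at most 0.05, and open points did not pass. SQSTM1 lies farthest to the right at 1.83 and MITF farthest to the left at -2.56, and the conjugation genes are the only machinery group with no red point, although ATG16L1 and ATG7 pass as higher with library size alone.

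The 4 cargo receptors all rose, with log2 fold changes from 0.14 to 1.83. SQSTM1 (ENSG00000161011, chr5:179806398-179838078 in the deposited hg38 annotation) encodes p62, the ubiquitin-binding receptor that is itself degraded by autophagy. Its FPKM was 33.1, 32.7 and 34.2 in the Control samples and 124, 132 and 134 in the PB samples. Every PB sample was above every Control sample by a wide margin, and SQSTM1 went from rank 3 to rank 1 by FPKM among the 41 genes. The fitted increase was 3.56-fold (log2 fold change 1.83 ± 0.02, SE, n = 3 per group, adjusted p = 1.9e-59, edgeR). In GENCODE release 29, 20.7% of SQSTM1's exonic bases are shared with MRNIP, whose mean FPKM was 3.96 in control and 9.03 with PB. Strandedness of the counting is not given in the sources used here, and the part of the shared bases in the SQSTM1 difference was not tested.

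The other receptors moved less. NBR1, a p62-related receptor, had FPKM values of 16.8, 16.8 and 16.5 in control and 23.7, 23.8 and 23.9 with PB (log2 fold change 0.38 ± 0.03, adjusted p = 2.5e-18). The values for TAX1BP1, a receptor that binds ubiquitinated cargo and NBR1, were 19.2, 18.1 and 19.1 in control and 24.9, 25.0 and 24.7 with PB (0.27 ± 0.03, adjusted p = 8.8e-13). OPTN, the mitophagy receptor optineurin, was at 15.9, 15.8 and 15.2 in control and 18.9, 19.0 and 18.8 with PB (0.14 ± 0.04, adjusted p = 6.4e-04). In all 3 genes the PB samples lay close together and did not overlap with the Control samples. Genes that were not called, such as LAMP1, did not overlap either.

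Of the 5 LC3 and GABARAP genes, whose products are lipidated onto the autophagosome membrane and bind the receptors, 4 rose, and GABARAPL2 was called as well under library size alone or where a mean FPKM of 1 was required. MAP1LC3B (ENSG00000140941, chr16:87383953-87404779), which encodes the LC3 protein most often followed as an autophagosome marker, had FPKM values of 34.7, 32.7 and 32.8 in control and 68.7, 69.9 and 69.8 with PB (log2 fold change 0.93 ± 0.03, adjusted p = 3.6e-40). MAP1LC3A was lower in level, at 4.95, 5.68 and 5.92 in control and 11.8, 12.5 and 10.6 with PB (0.93 ± 0.11, adjusted p = 1.3e-11). GABARAPL1 stood at 20.6, 20.6 and 20.2 in control and 40.0, 42.0 and 40.7 with PB (0.87 ± 0.03, adjusted p = 1.5e-33). These 3 genes had nearly equal folds, from 1.82 to 1.90.

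GABARAP and GABARAPL2 changed less. GABARAP was at 12.3, 12.1 and 13.9 FPKM in control and 18.0, 16.7 and 18.2 with PB (log2 fold change 0.33 ± 0.06, adjusted p = 5.7e-06). GABARAPL2 was at 24.8, 25.8 and 25.3 in control and 30.1, 28.4 and 29.3 with PB, and its fitted difference of 0.08 ± 0.04 did not pass (adjusted p = 0.092). The GABARAPL2 samples did not overlap in FPKM, and with library size alone its log2 fold change was 0.21 and passed. For MAP1LC3B, 601 bases align at 97.3% identity with the near copy MAP1LC3B2. Over the 6 samples 489 reads were counted on that copy, and its own log2 fold change was 0.90. The part of reads that fit both genes was not tested.

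The summed FPKM of the 5 genes was 97.4 ± 0.630 in control and 169 ± 0.435 with PB (SD, n = 3 per group). MAP1LC3B contributed 34.3% ± 1.2 of this sum in control and 41.1% ± 0.363 with PB. The share of GABARAPL2 went from 26.0% ± 0.650 to 17.3% ± 0.565, and that of GABARAPL1 from 21.0% ± 0.342 to 24.2% ± 0.524. Shares within a sample do not depend on the scaling between samples. In the control samples GABARAPL2 was the second most abundant of the family by FPKM, and with PB it was exceeded by GABARAPL1 in each sample.

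**Figure D2:**
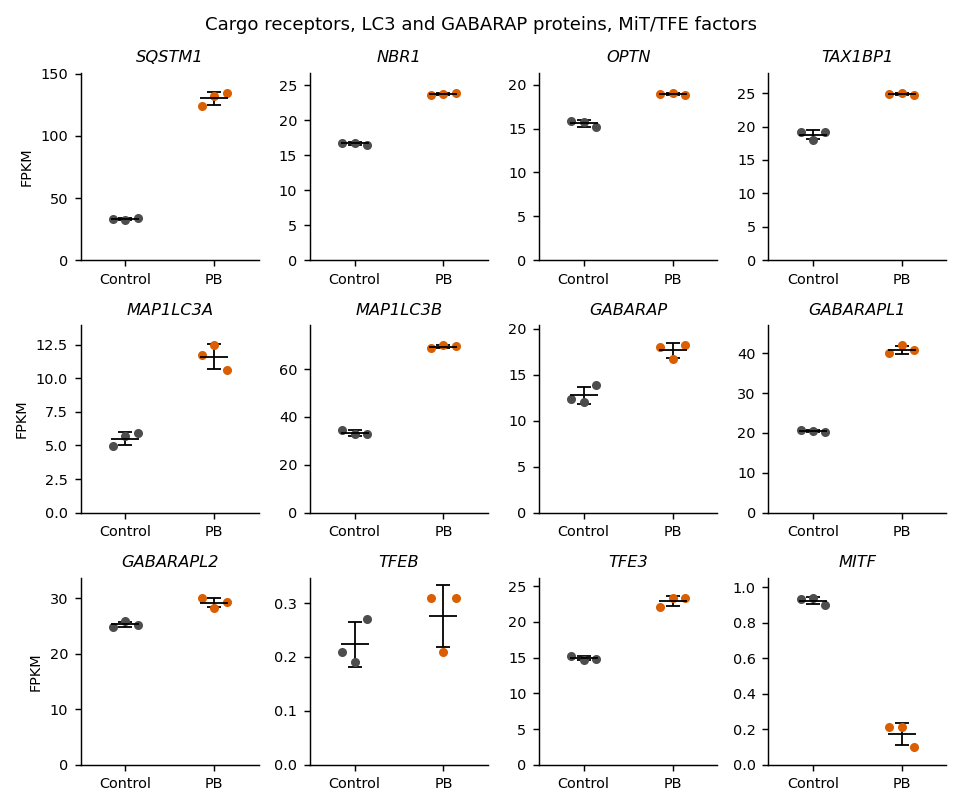
FPKM in each sample (points) for the cargo receptors, the LC3 and GABARAP genes and the MiT/TFE factors, with the group mean and SD in black and each vertical axis starting at 0. SQSTM1 goes from a mean of 33.4 to 130.2, MAP1LC3B from 33.4 to 69.5 and TFE3 from 14.9 to 22.9, while the TFEB samples overlap and MITF is lower in every PB sample.

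**Figure D3:**
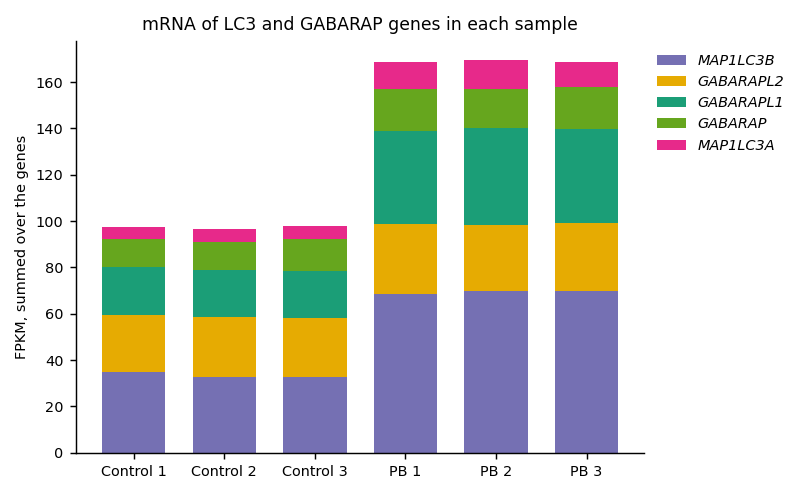
Stacked FPKM of the 5 LC3 and GABARAP genes in each of the 6 samples. The bars reach 96.8 to 98.1 in control and 169 with PB, and the MAP1LC3B and GABARAPL1 segments account for most of the added height.

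The initiation kinase complex genes among the 41 moved together and by similar amounts. ULK1 and ULK2 encode the kinases, and ATG13 and RB1CC1 (FIP200) encode scaffold subunits of the complex. All 4 rose, with log2 fold changes between 0.34 and 0.42. ATG101, a further subunit from the wider lists, did not pass (log2 fold change 0.15, SE 0.07, adjusted p = 0.062). RB1CC1 was the most abundant of the 41 genes in control, at 43.5 ± 1.15 FPKM (SD, n = 3), and stood at 60.6 ± 1.32 with PB. ATG13 went from 13.2 ± 0.605 to 18.7 ± 0.351, ULK1 from 4.06 ± 0.133 to 5.64 ± 0.0651 and ULK2 from 2.62 ± 0.0569 to 3.85 ± 0.0503.

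Both lipid kinase genes were called higher, ATG14 more firmly than BECN1. ATG14, which directs the kinase complex to autophagosome formation, went from 3.74 ± 0.114 to 5.62 ± 0.387 FPKM (log2 fold change 0.45 ± 0.07, adjusted p = 5.2e-08). BECN1, which encodes the scaffold Beclin 1, went from 6.48 ± 0.506 to 7.90 ± 0.0643 (0.15 ± 0.05, adjusted p = 0.0097). The BECN1 call was lost in DESeq2 (adjusted p = 0.060) and without the second Control sample (adjusted p = 0.16). BECN1 shares 4.68% of its exonic bases with PSME3, which was far more abundant, at a mean FPKM of 29.9 in control and 23.4 with PB.

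Among genes of membrane supply and PI3P binding, WIPI1 stood apart. WIPI1 (ENSG00000070540, chr17:68420948-68457513) encodes a PI3P-binding protein of the forming autophagosome, and its FPKM was 4.12, 4.92 and 4.72 in control and 9.97, 9.33 and 9.43 with PB. The groups were far apart, with a log2 fold change of 0.92 ± 0.07 (adjusted p = 5.4e-19). Its exons share 24.3% of their bases with ARSG, whose mean FPKM was 1.08 in control and 2.53 with PB. WIPI2, its relative that recruits the conjugation complex, differed by only 0.12 ± 0.04 (adjusted p = 0.0031). ATG9A, a lipid scramblase of the seed vesicles, differed by 0.24 ± 0.07 (adjusted p = 0.0018), and ATG2A, a lipid transfer protein, by 0.20 ± 0.07 (adjusted p = 0.015). The ATG2A call was lost in DESeq2 (adjusted p = 0.075), without the second Control sample (adjusted p = 0.073) and without the third PB sample (adjusted p = 0.082).

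The conjugation and processing genes did not share in the increase, with none of 7 called higher and 3 lower, although under library size alone ATG16L1 and ATG7 were called higher and the ATG12 call was lost, and ATG16L1 also passed where a mean FPKM of 1 was required and without the third PB sample. ATG3 (ENSG00000144848, chr3:112532510-112562046), the E2-like enzyme that transfers LC3 to lipid, fell most. Its FPKM was 13.0, 12.9 and 12.9 in control and 9.12, 9.17 and 9.02 with PB, with no overlap (log2 fold change -0.64 ± 0.04, adjusted p = 7.1e-22). ATG5, part of the E3-like complex, fell by 0.24 on the log2 scale (SE 0.04, adjusted p = 7.4e-08), and its ubiquitin-like partner ATG12 fell by 0.15 (SE 0.03, adjusted p = 1.2e-04), or by 0.012 with library size alone. ATG12 shares 4.25% of its exonic bases with AP3S1, whose mean FPKM was 58.7 in control and 43.7 with PB.

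The other 4 conjugation genes did not pass the test. ATG7 encodes the E1-like enzyme, ATG16L1 the third part of the E3-like complex, and ATG4A and ATG4B the proteases that prime LC3 and GABARAP proteins. Their log2 fold changes were -0.01 ± 0.05 for ATG7, -0.11 ± 0.09 for ATG4A, -0.08 ± 0.05 for ATG4B and 0.10 ± 0.06 for ATG16L1. ATG7 turned to 0.12 and passed with library size alone (adjusted p = 0.032). In RefSeq windows of this group only ATG3 held CACGTG, at 2 positions.

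The 3 MiT/TFE genes went different ways. TFE3 was the abundant one, at 15.2, 14.6 and 14.8 FPKM in control and 22.1, 23.4 and 23.3 with PB (log2 fold change 0.49 ± 0.04, adjusted p = 1.4e-17). MITF was at 0.930, 0.940 and 0.900 FPKM in control and 0.21, 0.21 and 0.1 with PB, which rests on 112, 120 and 147 reads against 25, 25 and 14. All PB values lay under all Control values (-2.56 ± 0.19, adjusted p = 2.8e-19). TFEB had only 22 to 40 reads in any sample, and its FPKM of 0.210, 0.190 and 0.270 in control overlapped with 0.310, 0.210 and 0.310 with PB. No TFEB difference was detectable at this depth (0.15 ± 0.25, adjusted p = 0.66). These are mRNA levels, and where the factors were in the cell was not measured.

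The lysosomal hydrolases held the largest differences among the 12 lysosomal genes, in both directions. CTSL (ENSG00000135047, chr9:87724051-87731469), the cysteine protease cathepsin L, was at 17.3, 16.7 and 17.0 FPKM in control and 31.3, 31.2 and 32.2 with PB (log2 fold change 0.76 ± 0.03, adjusted p = 6.7e-32). NEU1 (ENSG00000204386, chr6:31857659-31862905), the lysosomal sialidase, was at 6.03, 5.86 and 5.74 in control and 10.5, 10.7 and 11.3 with PB (0.75 ± 0.05, adjusted p = 5.0e-20). In both genes every PB sample exceeded every Control sample. HEXA (ENSG00000213614, chr15:72340924-72376420), the alpha subunit of beta-hexosaminidase, was at 2.74, 3.16 and 3.14 in control and 4.62, 4.57 and 4.92 with PB (0.51 ± 0.04, adjusted p = 2.8e-15).

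GLA (ENSG00000102393, chrX:101393273-101408012), alpha-galactosidase A, went the other way from the other 2 glycosidases. Its FPKM was 6.28, 6.37 and 6.35 in control and 3.54, 3.8 and 3.89 with PB. The fitted level with PB was 46.0% lower (log2 fold change -0.89 ± 0.06, adjusted p = 2.4e-21), and the groups did not overlap. Of the other cathepsins, CTSA, the protective protein that forms a complex with NEU1, rose from 10.2 ± 0.0656 to 13.4 ± 0.460 FPKM (0.26 ± 0.04). CTSA shares 3.42% of its exonic bases with PLTP, whose mean FPKM was 4.81 in control and 16.6 with PB. CTSB rose from 17.6 ± 0.134 to 21.2 ± 0.323 (0.13 ± 0.03). CTSD, the main aspartic protease, was at 5.81 ± 0.393 in control and 6.62 ± 0.270 with PB and did not pass (0.05 ± 0.06, adjusted p = 0.49), but was called with library size alone at 0.18.

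Membrane proteins and pump subunits differed little. LAMP2 rose by 0.17 ± 0.03, from 16.8 ± 0.180 to 20.8 ± 0.296 FPKM. LAMP1, the other major glycoprotein of the lysosomal membrane, differed by 0.04 ± 0.04 (adjusted p = 0.41), and the calcium channel gene MCOLN1 by 0.13 ± 0.10 (adjusted p = 0.29). ATP6V0D1, a membrane-sector subunit of the proton pump, fell from 4.34 ± 0.0971 to 3.82 ± 0.125 FPKM (-0.32 ± 0.06, adjusted p = 1.6e-06), and ATP6V1H, of the catalytic sector, differed by 0.02 ± 0.05 (adjusted p = 0.80). Library size alone gave higher calls for LAMP1 (0.17), MCOLN1 (0.27) and ATP6V1H (0.15).

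**Figure D4:**
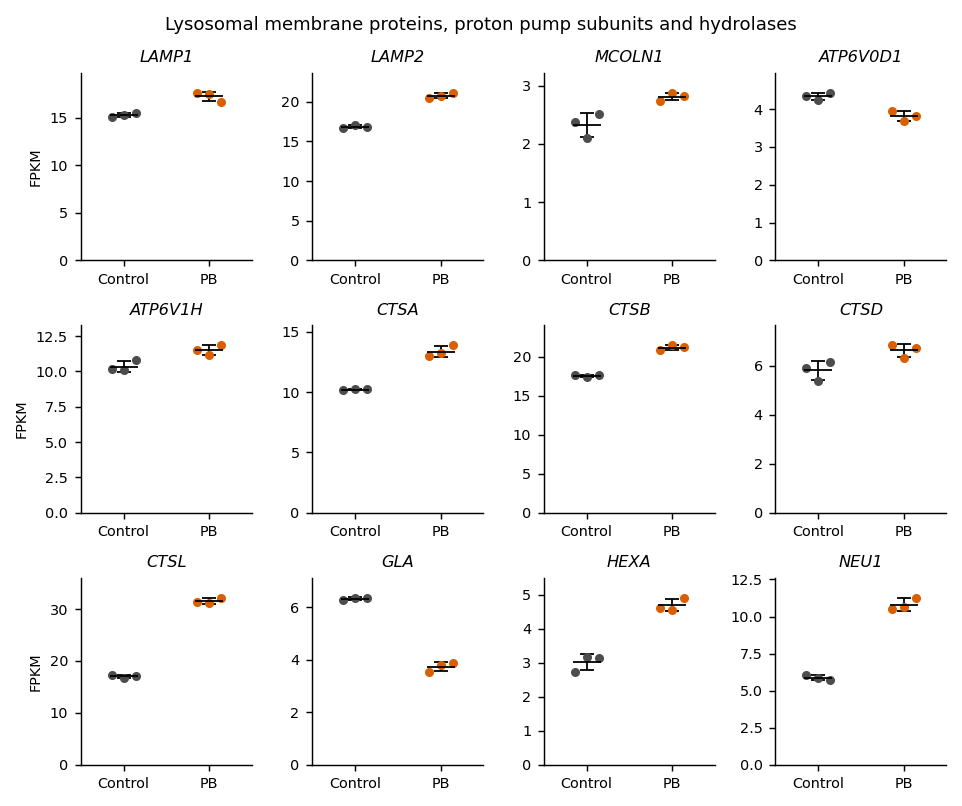
FPKM in each sample (points) for the 12 lysosomal genes, with the group mean and SD in black and each vertical axis starting at 0. CTSL goes from a mean of 17.0 to 31.6, NEU1 from 5.88 to 10.8 and HEXA from 3.01 to 4.70, while GLA goes from 6.33 to 3.74.

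CACGTG was found both at genes that rose and at genes that fell. Of the 8 genes with a match, 3 rose (ATG14, CTSA and NEU1), 2 fell (ATG3 and ATP6V0D1) and 3 did not pass (LAMP1, MCOLN1 and CTSD), with a median log2 fold change of 0.09. Of the 27 genes with a window and no match, 17 rose, 4 fell and 6 did not pass, with a median of 0.20. These groups differ in make-up, as 6 of the 8 were lysosomal genes and 22 of the 27 machinery genes. The median of lysosomal genes was 0.09 with a match and -0.06 without (6 and 2 genes). That of machinery genes was -0.09 with a match and 0.22 without (2 and 22 genes). In the other lists it was 0.17 against 0.21 for lysosomal, 0.11 against -0.16 for V-ATPase and -0.26 against 0.05 for autophagy genes. LAMP1, whose window holds 6 copies, 5 of them in the stretch printed above, is among the matched genes that did not pass. The longer form TCACGTGA, a subset of these matches, occurred in 0.98% of all windows (1.18% of genes) and at 5 of the 35 genes, ATG3, LAMP1, MCOLN1, ATP6V0D1 and CTSA. TGACNNNGC, the antioxidant response element core, searched on both strands, occurred in 13.3% of all windows (16.1% of genes) and at 7 of the 35 genes: MAP1LC3B, LAMP1, ATP6V0D1, CTSA, CTSD, CTSL and GLA. TGATGNAA, the core bound by ATF4 with C/EBP partners, also searched on both strands, occurred in 3.62% of all windows (4.46% of genes) and at none of the 35 genes. A match is a description of letters, and its absence says nothing of elements elsewhere or of the factors.

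Other genes of the same pathways were read from lists that contain none of the 41. Of 40 other autophagy genes, 37 were tested, and 13 rose, 9 fell and 15 did not pass, with a median log2 fold change of 0.02, against 0.26 for the 26 machinery genes. With library size alone 21 rose and 5 fell. WDR45 (WIPI4), a PI3P-binding partner of ATG2 proteins, was at 5.21, 5.28 and 5.73 FPKM in control and 15.6, 15.9 and 16.1 with PB (1.41 ± 0.05, adjusted p = 1.7e-35). CCPG1, an autophagy receptor of the endoplasmic reticulum, was at 3.84, 4.30 and 3.98 in control and 8.76, 8.76 and 9.34 with PB (1.02 ± 0.05, adjusted p = 3.0e-29). Both genes were strongly higher. TGATGNAA was present at 2 of the 32 genes of this list with a window, WDR45 and MAP1LC3C, against 4.46% of all genes with a window. MAP1LC3C had 0 to 2 reads in each sample and was not tested.

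Of 59 other lysosomal genes, 58 were tested, and 33 rose, 15 fell and 10 did not pass, with a median log2 fold change of 0.17. Hydrolases in this list rose in 20 of 36 cases and fell in 10, and membrane and activator proteins rose in 13 of 22 and fell in 5. IDUA, the glycosaminoglycan hydrolase alpha-L-iduronidase, was strongly higher at 0.560, 0.660 and 0.640 FPKM in control and 1.85, 1.45 and 1.68 with PB (1.28 ± 0.16, adjusted p = 1.0e-10). CTSS, the cysteine protease cathepsin S, was strongly lower at a level under 1 FPKM, with 75, 72 and 126 reads in control and 8, 7 and 25 with PB (-2.75 ± 0.23).

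The 19 other V-ATPase genes tested, of 21, had 4 higher, 10 lower and 5 not passing, with a median of -0.08, but 8 higher, 5 lower and a median of 0.05 with library size alone, so no direction is given for the pump. ATP6V1A, its catalytic subunit, went from 22.6 ± 1.34 to 17.7 ± 1.23 FPKM (-0.49 ± 0.04), and ATP6V1F from 47.4 ± 2.57 to 38.7 ± 2.55 (-0.42 ± 0.06). At levels under 1 FPKM, ATP6V0D2 was strongly higher, with 2, 3 and 1 reads in control and 10, 10 and 17 with PB, and ATP6V1C2 strongly lower (-1.10 ± 0.28) with overlapping samples. ATP6V1E2 differed by 0.27 ± 0.10 and the accessory subunit ATP6AP1 by 0.25 ± 0.04. Of 12 genes that anchor mTORC1, the nutrient-sensing kinase complex, to the lysosome, 5 rose, 4 fell and 3 did not pass, with a median of 0.10, and 1 was called lower with library size alone. RRAGB, a Rag GTPase, went from 5.59 ± 0.697 to 11.3 ± 0.214 FPKM (0.90 ± 0.07), and FLCN (folliculin) from 2.52 ± 0.178 to 4.20 ± 0.205 (0.59 ± 0.06). The Ragulator subunit LAMTOR5 fell by 0.30 on the log2 scale (SE 0.06) and LAMTOR1 by 0.20 (SE 0.06).

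**Figure D5:**
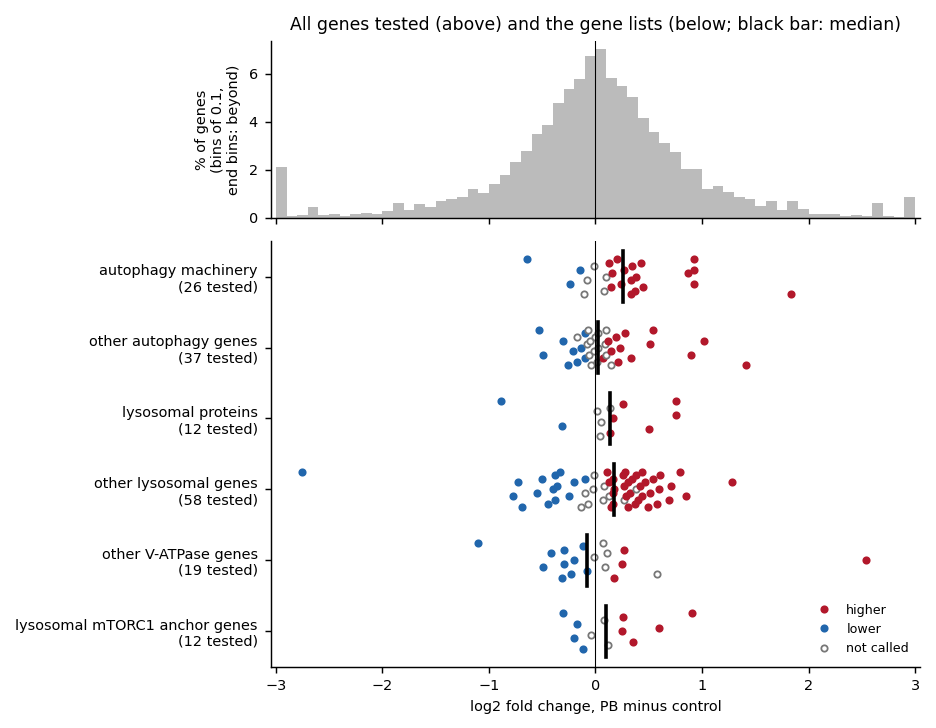
Log2 fold change, PB minus control, of all 24200 genes tested (upper panel, percentage of genes per bin of 0.1, with genes beyond the axis in the end bins) and of the gene lists (lower panel, a point per gene, red higher, blue lower, open not called, black bar at the median). The median of the autophagy machinery, 0.26, lies to the right of the other lists, and the proton pump genes have their median at -0.08, which turns positive with library size alone.

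The libraries held 15681655 to 21986948 counted reads. Expression correlated at 0.997 or more between samples of a group and at 0.975 or less between groups. All 8 mesenchymal markers fixed for this line were present, with a summed level of 6291 to 6446 CPM (counts scaled to the library total) in control and 5758 to 5778 with PB, and 7 of them were called lower and 1 higher. The 16 epithelial markers summed to 1648 to 1675 CPM in control and 640.1 to 661 with PB, with 5 of the 9 tested called lower, 1 higher (ESRP1), and 8 of the 16 at 3 counts or fewer in every PB sample against 5 in every Control sample. Most of the epithelial sum came from the keratins KRT8 and KRT18. KRT8 was at 107 ± 0.915 FPKM in control and 38.9 ± 0.827 with PB, and KRT18 at 286 ± 4.32 and 121 ± 2.12. CDH1 (E-cadherin) was at 3.98 ± 0.307 FPKM in control and 0.0133 ± 0.0115 with PB, and ELF3 at 1.99 ± 0.172 and 0.00333 ± 0.00577. CLDN3, CLDN4 and KRT19 were not called. The 5 leukocyte markers summed to 1.29 to 1.91 CPM in control and 0.475 to 0.510 CPM with PB. Of the 3 receptor markers, ESR1 and PGR were under 1 FPKM in control. The third, ERBB2, was at 2.95 ± 0.159 FPKM in control and 3.59 ± 0.166 with PB. ESR1 and ERBB2 were called higher with PB (log2 fold change 0.90 ± 0.27 and 0.14 ± 0.06), and PGR was not tested. In 113 of the 61806 genes of the table no Control sample had under 30 counts while no PB sample had over 3, and 1 gene had the opposite pattern. None of the 41 genes had either pattern, which is rare in the whole table. With the 113 genes left out of the scaling the machinery had 18 higher and 3 lower and the lysosomal genes 6 and 2. TMM already trims extreme ratios, so this refit could hardly move the calls, and it does not bear on the make-up of the cultures. The part of the marker differences in the autophagy and lysosome results was not tested.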

How the data were processed

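Poly(A) RNA of MDA-MB-231 cells was sequenced as paired reads. The submitters' processing notes name hg38, HTSeq 0.6.1, Cufflinks 2.2.1 and DESeq2 without their roles, and the aligner and strandedness are not given in the sources used here. The authors deposited 1 table with raw read counts per gene, FPKM per gene and each gene's exonic length (another unit, in bases). The deposited FPKM equals count divided by length and library total within rounding for 100% of values. 0 columns of per-sample values were left unmatched to a sample.

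Samples were grouped by their labels. The dose and time are those of the study's text. Counts of genes whose mean FPKM reached 0.1 were fitted in edgeR 4.0.16 (R 4.3.3; TMM, quasi-likelihood test with legacy = TRUE, library sizes over all genes), 3 PB against 3 Control samples, with Benjamini-Hochberg adjustment over 24200 genes. The legacy option had been chosen to limit the prior degrees of freedom but made them infinite, and with it off they were 58.8. Gene-level adjusted p-values in the text are from the latter fit. limma 3.58.1 on log2(FPKM + 0.1), DESeq2 1.42.0, other filters and scalings, a replicate block and leaving out each sample were the alternatives. Scripts were tested on simulated data.

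The 41 genes and the other lists were chosen with earlier results of these data known. Values in every sample were printed for receptors, LC3 and GABARAP genes, MiT/TFE factors and called genes whose log2 fold change was 0.5 or more in size. From the other lists, the genes strongly changed and reaching a mean FPKM of 1 were named, or, where none was, the 2 largest called changes in each direction among genes at that level. The strongly changed genes under it (CTSS, ATP6V0D2 and ATP6V1C2) were added after their values were seen. So were PIK3C3, PIK3R4, ATG101 and MAP1LC3C, which are named beside the complex or motif they belong to. Promoter windows are from RefSeq (GRCh38.p14), and shared exons from GENCODE release 29, in which 17 of the 41 genes had the deposited span. In that release 19 of the 41 genes share exonic bases with another gene. The largest shares on the same strand were 41.7% of CTSD with AC068580.4, 38.8% of ATG9A with AC068946.2 and 30.5% of GABARAP with AC120057.2. Their part in the counts of these genes was not tested. The replicates' counts differed by more than sampling noise (chi-square per degree of freedom 1.45 to 1.92). The biological coefficient of variation was 6.97% by the median gene-wise dispersion, while the common dispersion was lower, at 4.95e-04.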

Additional observations from a re-analysis of the deposited data

How the results depend on the processing

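The calls on the 41 genes were recomputed under 15 alternatives. Library size alone, without TMM, moved the median of all genes to 0.14, the machinery median to 0.39, and the lysosomal genes to 10 higher with a median of 0.27. Under it the other autophagy genes had 21 higher, 5 lower and a median of 0.16, the other lysosomal genes a median of 0.30, the V-ATPase genes 8 higher, 5 lower and a median of 0.053, and the mTORC1 anchor genes 1 lower and a median of 0.23. With it 4 of the 41 genes were strongly higher and 1 gene of the other lists strongly lower, and ATG7 turned from -0.01 to 0.12. limma on log2(FPKM + 0.1), which has no TMM either, gave medians of 0.13, 0.39, 0.27, 0.15, 0.29, 0.051 and 0.22 in the same order, with 10 lysosomal genes higher, 4 other autophagy genes lower, 8 V-ATPase genes higher and 4 lower, 1 anchor gene lower, 4 of the 41 strongly higher and 1 other gene strongly lower. DESeq2 called 2 anchor genes lower. Without a filter the V-ATPase median was -0.12. Where a mean FPKM of 1 was required, MITF and TFEB were not tested, so that 0 transcription factor genes were lower, their median was 0.52, and 0 of the 41 and 0 of the other lists were strongly lower, with 608 and 769 genes strongly higher and lower in all. Leaving out 1 sample gave a V-ATPase median of -0.10 to -0.045, 2 to 3 anchor genes lower and 1 to 2 genes of the other lists strongly lower. The median was -0.045 without the first Control sample, 2 anchor genes were lower without the second Control or the second PB sample, and 1 gene of the other lists was strongly lower without the second Control, the third Control or the second PB sample. Where these changes follow from the missing TMM factor or from genes removed, that is how the alternative was made, and the cause of the others was not tested. Over the single genes, 590 values kept their side of the threshold and, where called, their direction, 15 passed it only under the alternative, 7 lost it, and the ATG7 value above turned and passed. In all, 12 values had another sign than the reported one, all of genes not called in the report (ATG4A, ATG4B, ATG7, ATP6V1H and CTSD), and 11 of them did not pass the test. The replicate block left 18 machinery genes higher and 3 lower. Same-numbered samples did not deviate together (correlations -0.041, 0.016 and -0.019). No pairing by number was seen in these values, which with 3 samples per group cannot show that none was made. Depth limits TFEB and MITF, and FPKM under 1 elsewhere.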
